A study of Mus musculus with 12 samples.

Results

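Fatty acid oxidation, ketone body formation and the targets of the receptor PPAR-alpha were followed in mouse liver as a set of 42 named genes, given as a list of symbols. Each gene was represented by its transcript row with the highest mean level over all samples, and all 42 were found among the 22322 gene symbols of the tables. The livers came from mice given as C57BL/6 and 8 weeks old by the labels, and as males on a C57BL/6J background by the study. RNA was sequenced from 3 samples of each of 4 groups, namely WT (Bmal1 flox/flox) at CT0 and CT12 and liver-specific Bmal1 KO (the same floxed line crossed to a liver CRE line) at CT0 and CT12, where CT is circadian time in hours counted from the time at which lights would have come on. All mice were held in darkness for the last days before they were killed. The CRE promoter is named only as liver specific, and no CRE is stated for WT, so effects of CRE and of losing Bmal1 cannot be told apart. By the study's methods RNA came from 3 mice of each genotype at CT0 and at CT12, the number of samples titled, while a protocol label shared by the samples gives fewer. The p-values measure the spread between these samples only.

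Fatty acids that reach a hepatocyte are bound by carrier proteins, joined to coenzyme A, passed into mitochondria on carnitine and shortened there in cycles, while peroxisomes shorten the longest chains and microsomal Cyp4a enzymes oxidise the far end of the chain. In fasting, much of the acetyl-CoA that results becomes ketone bodies. PPAR-alpha, a nuclear receptor that fatty acids activate, binds DNA with its partner RXR at direct repeats spaced by a single base (DR1) and raises many genes of all these steps. BMAL1, encoded by Arntl, pairs with CLOCK to drive the circadian clock by binding E-boxes.

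The data showed lower levels of many of these genes in KO. Over both times, 19 of the 41 tested members were lower in KO and 1, Pdk4, was higher, against 4.03% of all 10799 tested genes lower and 7.44% higher. The median member difference was -0.383 on the log2 scale, and the median over all tested genes was 0.043. The background split of 803 higher and 435 lower genes was 655 and 594 after quantile normalization and 638 and 603 after median-ratio scaling. The falls were steepest among the omega-hydroxylases (median -1.334) and the acyl-CoA thioesterases (median -1.235), and the core enzymes of mitochondrial oxidation had a median of -0.181. Here and below a level is in RPKM, reads scaled to transcript length and sequencing depth, and a difference is KO minus WT (or CT12 minus CT0) in log2(RPKM + 1) with its standard error, from a limma model of all 12 samples with p-values adjusted over all tested genes and a threshold of 0.05. The 1 member not tested was Fgf21, the fasting hormone, which stayed between 0.146 and 1.10 RPKM in the 12 samples, or 2 to 14 reads.

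Recovered from the spacing of low values, the depth was 11540000 to 19070000 reads per sample, with 95.4% to 96.2% of low values within 0.05 of a whole read. Arntl, the targeted gene, checked the labels only in part. Its WT levels at CT0 were 16.4, 15.7 and 15.7 RPKM, those at CT12 1.26, 0.680 and 1.21, and its KO levels were 5.92, 5.73 and 7.45 and then 4.37, 3.59 and 4.01. Arntl was thus lower in KO at CT0 (-1.21 ± 0.13, limma adjusted p = 0.00058) and higher in KO at CT12 (1.29 ± 0.13, limma adjusted p = 6.3e-05), and a whole-transcript value does not show the deleted exons. Hepatocyte markers were abundant in every library. The summed level of the 7 hepatocyte markers in the tables was 26997 to 35470 RPKM in KO and 39220 to 51395 in WT, a gap carried by Alb (14010 to 21240 in KO, 26610 to 37870 in WT). Over both times 5 of the 7 had a difference below 0, and 1, Alb, passed as lower. Without Alb the sums overlapped, at 10461 to 14228 RPKM in KO and 12612 to 14099 in WT. Of 5 cholangiocyte markers, Spp1 made up nearly all of the sum, at 87.0 to 148 RPKM in KO and 26.5 to 61.5 in WT, and was the 1 of 4 tested that was higher in KO, while the others summed to 1.34 to 5.68 in KO and 0.708 to 3.64 in WT. Of 6 pancreas markers, Cela1 alone reached the level for testing (13.9 to 21.6 RPKM in KO, 3.65 to 10.6 in WT, higher in KO over both times), and 2, Ctrb1 and Cpa1, were at 0 in every sample. At CT0 the sums of 6 stellate markers (119 to 159 RPKM in WT, 146 to 178 in KO) and of 5 erythroid markers (160 to 380 in WT, 212 to 223 in KO) overlapped. At CT12 they did not, with stellate sums of 89.4 to 103 in WT and 113 to 145 in KO and erythroid sums of 107 to 189 in WT and 245 to 306 in KO. Of the 5 erythroid markers, 2 were higher in KO at CT12, Hba-a2 and Hbb-b2, whose reads may be shared with near copies. The erythroid marker Alas2 went the other way and was lower in KO over both times. Its KO mean was 61.7% of the WT mean at CT0 and 83.0% at CT12. The 6 lymphocyte markers summed to 3.73 to 7.36 RPKM with overlap at both times, 5 adipocyte markers to at most 1.24 and 5 muscle markers to at most 0.25, with 1 marker of each of the last 2 lists at 0 in every sample. The part of these shifts in the results was not tested, and in whole liver fewer cells of a type and less RNA per cell cannot be told apart.

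**Figure D1:**
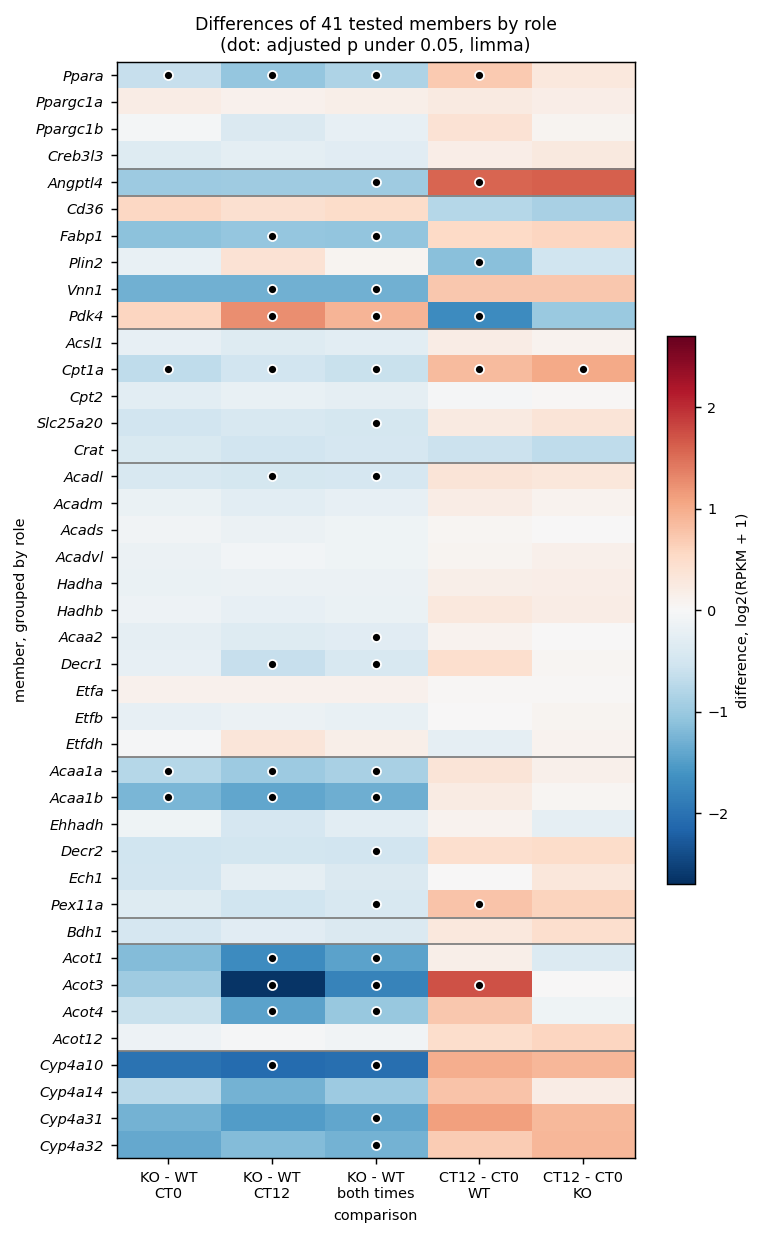
Differences of the 41 tested members, in rows by role, for 5 comparisons in columns. Colour gives the difference in log2(RPKM + 1), blue for lower and red for higher, and a dot marks a limma adjusted p under 0.05. In the column for KO minus WT over both times, 19 blue cells and 1 red cell carry a dot.

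Sequences next to the start sites are shown because PPAR-alpha acts at DR1 elements. The RefSeq table of promoters (GRCm38.p6, a build other than that of the deposited values) holds windows of 300 bases, from 250 before to 50 after a start, for 33 of the 42 members in 37 windows. A DR1 was searched on both strands as AGGTCA repeated directly after 1 free base, with up to 2 mismatches among its 12 fixed bases, and was found in 8 of 37 member windows (21.6%) and in 3.9% of all 32851 windows. A single exact AGGTCA, which can lie within a DR1, was in 29.7% of the member windows and 16.3% of all. The E-box CACGTG was in 8.1% and 7.2%, and the D-box, searched as TTATGTAA or TTACGTAA, was in none of the 37 and in 1.1% of all. The 3 members with an E-box were Acot4, Fgf21 and Plin2. These are matches of letters in short windows and not measured binding. The list was named in part for PPAR-alpha targets, so its share of DR1 matches is not independent of how the genes were chosen. The 8 DR1 matches, each with 8 bases on either side, follow 5′ to 3′ in the direction of the repeat, with the match in capitals.
Acot12 (chr13:91741403-91741431, - strand, mismatches 1): tgcttaggAGGTGAGAGGTCAgggtccta
Acot4 (chr12:84038358-84038386, - strand, mismatches 2): gcacagacCGGCCAAAGGTCAtgcttcgg
Cd36 (chr5:17835939-17835967, + strand, mismatches 2): atccaagtAAGTCAGAGGCCAgagaacca
Creb3l3 (chr10:81092780-81092808, - strand, mismatches 2): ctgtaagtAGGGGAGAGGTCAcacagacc
Etfa (chr9:55512300-55512328, + strand, mismatches 2): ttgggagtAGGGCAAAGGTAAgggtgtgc
Fabp1 (chr6:71199804-71199832, - strand, mismatches 1): tcagatatAGGCCATAGGTCAgtgattgt
Plin2 (chr4:86670264-86670292, + strand, mismatches 2): tctgacttAGGTCAGGGGTCCtgaaagct
Slc25a20 (chr9:108662134-108662162, + strand, mismatches 2): ctgaatgtAGGTGAAAGGTCGgcggagcc
Of these 8 members, Acot4, Fabp1 and Slc25a20 were lower in KO over both times, against 19 of all 41 tested members and 4.03% of all tested genes. The 41 include members without a window, which were not searched, so these counts have different bases. The other 5 of the 8 did not pass over both times, and a link between a DR1 match and the difference was not tested.

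Among the regulators, Ppara itself was lower in KO at both times. Ppara, the gene of PPAR-alpha (transcript at chr15:85566561-85632178, + strand, NCBIM37), stood at 36.9, 37.5 and 37.1 RPKM in WT at CT0 and at 56.6, 62.7 and 64.95 in WT at CT12. The KO samples stood at 22.99, 25.4 and 23.2 RPKM (CT0) and 24.6, 28.04 and 36.2 (CT12). No KO sample reached the lowest WT sample of its time. The difference was -0.62 ± 0.12 at CT0 (limma adjusted p = 0.024) and -1.04 ± 0.12 at CT12 (limma adjusted p = 0.00015), so that the KO mean was 64.3% of the WT mean at CT0 and 48.2% at CT12. Ppara also rose from CT0 to CT12 in WT by 0.71 ± 0.12 (limma adjusted p = 0.0029) without overlap, while the KO samples of the 2 times overlapped and differed by 0.28 ± 0.12 (limma adjusted p = 0.21). That difference in slope was -0.42 ± 0.17 and did not pass the interaction test (limma adjusted p = 0.32). The other 3 regulators did not pass in any comparison. Ppargc1a, a coactivator of PPAR-alpha induced in fasting, had group means between 3.45 and 4.67 RPKM. Its relative Ppargc1b had means between 0.807 and 1.56 RPKM, and Creb3l3, a liver transcription factor that works with PPAR-alpha in fasting, had means between 58.0 and 83.4 RPKM.

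Angptl4, a secreted inhibitor of lipoprotein lipase and a classic PPAR target, varied more between samples. The WT samples gave 3.74, 10.2 and 9.73 RPKM at CT0 and, at CT12, 28.7, 15.5 and 29.7. The KO samples gave 3.67, 3.47 and 2.46 RPKM at CT0 and, at CT12, 9.95, 7.001 and 22.6. The genotypes did not overlap at CT0, where the lowest WT sample was barely above the highest KO sample, and overlapped at CT12. Neither time passed alone (limma adjusted p = 0.28 and 0.17), and the difference over both times was -0.97 ± 0.29 (limma adjusted p = 0.048), close to the threshold. It was lost in 12 of 20 alternatives, up to an adjusted p of 0.11, among them the removal of any single library other than WT CT0 replicate 1, WT CT12 replicate 2 or KO CT12 replicate 3.

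Fabp1, Vnn1 and Pdk4 moved among the 5 genes of uptake, binding, lipid droplets and fuel choice, whereas Cd36 and Plin2 did not pass a genotype test. Fabp1, the abundant fatty acid binding protein of the liver (chr6:71149821-71155017, + strand, NCBIM37), was the most highly expressed member, at 4127, 3971 and 3708 RPKM in WT at CT0 and 5242, 5371 and 6457 at CT12. Its KO samples stood at 1814, 2841 and 1198 RPKM at CT0 and 1828, 3027 and 3695 at CT12. All KO samples lay below all WT samples of the same time, and the KO mean was 49.6% of the WT mean at CT0 and 50.1% at CT12. The difference was -1.10 ± 0.29 at CT0 (limma adjusted p = 0.084), -1.05 ± 0.29 at CT12 (limma adjusted p = 0.037) and -1.07 ± 0.20 over both times (limma adjusted p = 0.0049).

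Vnn1, a pantetheinase that PPAR-alpha induces in liver, was at 5.02, 10.4 and 11.7 RPKM in WT at CT0 and 14.6, 10.2 and 21.5 at CT12. The KO samples gave 2.17, 4.39 and 2.46 RPKM at CT0 and, at CT12, 2.93, 5.81 and 8.75. At each time the KO samples all lay below the WT samples, though CT0 alone did not pass and CT12 did (limma adjusted p = 0.12 and 0.045). The difference over both times was -1.30 ± 0.26 (limma adjusted p = 0.0075), with 33.2% of the WT mean left in KO at CT0 and 37.8% at CT12.

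Pdk4, the kinase that shuts off pyruvate dehydrogenase so that cells burn fat in place of glucose, went the other way. It was at 3.11, 8.38 and 5.18 RPKM in WT at CT0 and 0.961, 0.841 and 0.984 at CT12. KO samples reached 10.4, 6.43 and 8.46 RPKM at CT0 and 3.24, 3.88 and 3.78 at CT12. The genotypes overlapped at CT0 and were far apart at CT12, where the KO mean was 391.5% of the WT mean. The difference was 0.58 ± 0.24 at CT0 (limma adjusted p = 0.28) and 1.26 ± 0.24 at CT12 (limma adjusted p = 0.0054). Pdk4 was the only member higher in KO at CT12, where 12 were lower, against 6.97% of all tested genes higher and 3.49% lower. The background split of 753 higher and 377 lower genes moved to 543 and 501 after quantile normalization and to 518 and 558 after median-ratio scaling. Of the 13 members called at CT12, Acaa1a, Acaa1b, Acot3, Acot4, Pdk4 and Ppara were called under every alternative in which they could be tested. The other 7 calls were each lost in at least 4 alternatives, with adjusted p-values up to 0.075 for Acot1, 0.11 for Decr1, 0.13 for Fabp1, 0.16 for Cpt1a, Cyp4a10 and Vnn1, and 0.17 for Acadl.

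Plin2, the coat protein of lipid droplets, was at 258, 261 and 256 RPKM in WT at CT0 and 110.2, 100.1 and 147 at CT12. Levels in KO were 225, 218 and 227 RPKM at CT0 and, at CT12, 109, 165 and 198. KO samples were all slightly below WT at CT0 and spread across the WT range and above it at CT12, and no genotype difference passed (-0.21 ± 0.19 and 0.38 ± 0.19, limma adjusted p = 0.68 and 0.24). Cd36, a membrane carrier of fatty acids, had means of 24.1 and 13.8 RPKM in WT and 35.9 and 19.8 in KO at CT0 and CT12, with overlapping samples at both times.

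Of the 5 genes that activate fatty acids and carry them into mitochondria, Cpt1a and Slc25a20 were lower in KO. Cpt1a, the carnitine palmitoyltransferase that limits the rate of entry (chr19:3323301-3385732, + strand, NCBIM37), was at 50.6, 60.6 and 63.1 RPKM in WT at CT0 and 108, 92.2 and 116 at CT12. The 6 KO samples were at 29.9, 42.6 and 34.8 RPKM at CT0 and 63.7, 72.3 and 85.2 at CT12. KO lay below WT without overlap at each time, and in each genotype CT12 lay above CT0 without overlap. The genotype difference was -0.69 ± 0.15 at CT0 (limma adjusted p = 0.038), -0.52 ± 0.15 at CT12 (limma adjusted p = 0.046) and -0.60 ± 0.10 over both times (limma adjusted p = 0.0028).

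Slc25a20, the carnitine carrier of the inner mitochondrial membrane, was at 49, 50.8 and 48.5 RPKM in WT at CT0 and 60.3, 47.9 and 70.3 at CT12. Its KO samples lay at 36.7, 33.4 and 32.5 RPKM at CT0 and 35.7, 45.1 and 50.9 at CT12. The genotypes were apart at CT0 and overlapped at CT12, and over both times the difference was -0.47 ± 0.10 (limma adjusted p = 0.0099). The 3 genes that did not pass were Acsl1, which joins fatty acids to coenzyme A, with a difference over both times of -0.28 ± 0.15, Cpt2, the inner partner of Cpt1a, with -0.24 ± 0.11, and Crat, a carnitine acyltransferase of short chains, with -0.46 ± 0.19. Their limma adjusted p-values were 0.27, 0.17 and 0.14.

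**Figure D2:**
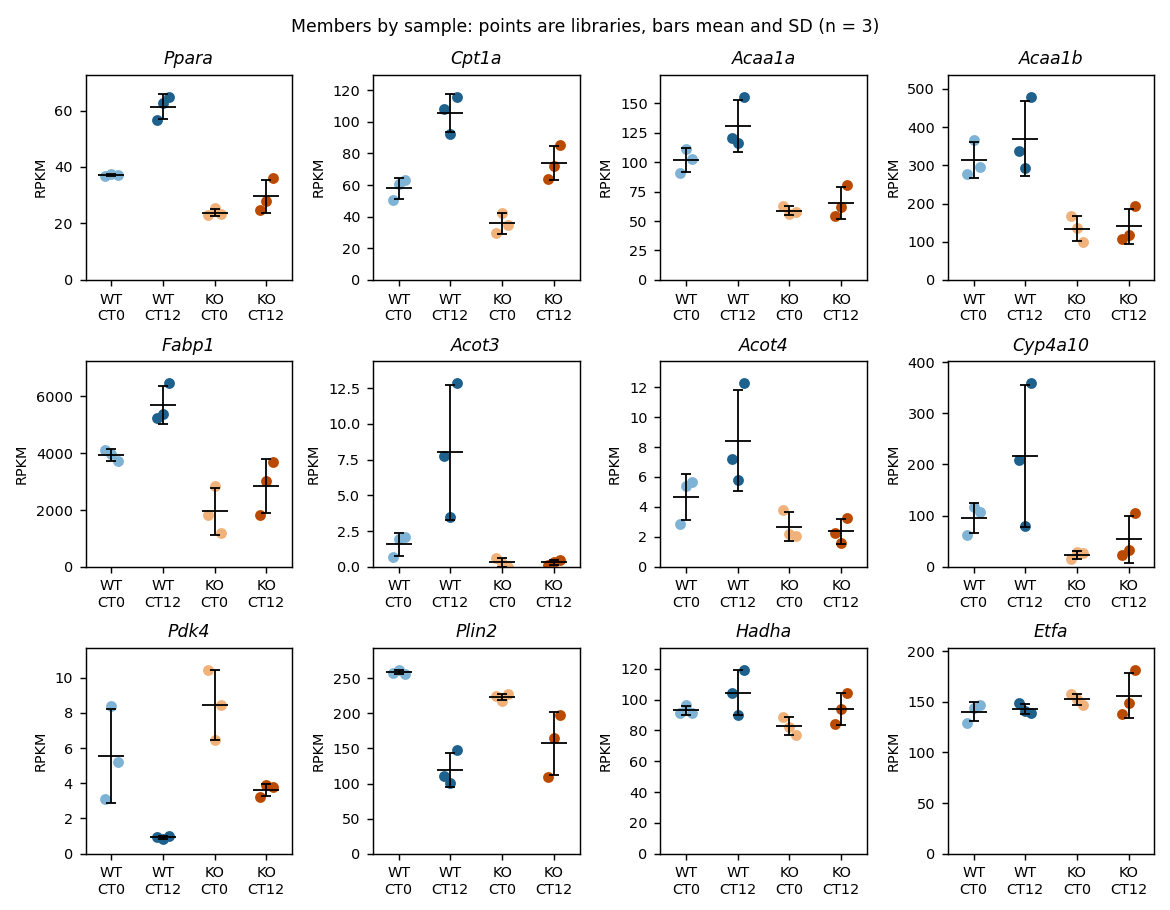
Levels in RPKM of 12 members in each of the 12 libraries, with a linear axis from 0. Points are libraries and bars the mean with its SD (n = 3) of each of the 4 groups. Ppara, Cpt1a, Acaa1a, Acaa1b and Fabp1 lie lower in KO at both times, Pdk4 lies higher in KO at CT12, and Hadha and Etfa overlap between genotypes at CT12.

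Differences were smaller in mitochondrial oxidation itself, with a median of -0.181 over both times against -0.383 over all tested members. Of the 11 members of this role 3 were lower in KO over both times, against 4.03% of all tested genes, and 9 had a difference below 0. Acadl, the long-chain acyl-CoA dehydrogenase, was at 43.7, 53.4 and 48.3 RPKM in WT at CT0 and 62.3, 52.3 and 71.5 at CT12, and at 32.9, 37.8 and 36.3 in KO at CT0 and 38.6, 43.3 and 51.8 at CT12. It lay lower in KO without overlap at both times, with a difference of -0.45 ± 0.09 over both (limma adjusted p = 0.0089). CT0 alone did not pass and CT12 did (limma adjusted p = 0.14 and 0.044). Decr1, the reductase needed for unsaturated chains, was at 45.7, 56.7 and 56.2 RPKM in WT at CT0 and 72.3, 65.6 and 78.8 at CT12, and at 48.3, 44.1 and 41.7 in KO at CT0 and 36.1, 46.2 and 60.5 at CT12. It overlapped between genotypes at CT0 and was apart at CT12 (-0.62 ± 0.16, limma adjusted p = 0.028). Acaa2, the thiolase that ends each cycle, was at 479, 491 and 505 RPKM in WT at CT0 and 556, 474 and 546 at CT12, and at 417, 406 and 415 in KO at CT0 and 380.0, 385 and 483 at CT12. The KO samples were all lower at CT0 and 1 of them reached the WT range at CT12, with a difference over both times of -0.30 ± 0.07 (limma adjusted p = 0.018).

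The 8 others did not pass any comparison. Hadha, the alpha subunit of the trifunctional protein, was at 91.7, 96.5 and 91.3 RPKM in WT at CT0 and 104, 89.95 and 119 at CT12, and at 88.8, 82.1 and 77.3 in KO at CT0 and 83.9, 93.8 and 104 at CT12. Its difference over both times was -0.16 with a 95% interval of -0.33 to 0.01. Such intervals are not adjusted for the number of genes. The beta subunit Hadhb had -0.18 (-0.36 to 0.00). The dehydrogenases for other chain lengths gave -0.12 (-0.28 to 0.04) for Acadvl, -0.22 (-0.41 to -0.04) for Acadm and -0.12 (-0.25 to 0.01) for Acads. The electron carriers that take up their electrons gave 0.12 (-0.03 to 0.27) for Etfa, -0.19 (-0.33 to -0.06) for Etfb and 0.15 (-0.06 to 0.35) for Etfdh. Etfa and Etfdh were the 2 members of this role with a difference above 0.

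All 6 peroxisomal members had a difference below 0 over both times, and 4 passed as lower, against 4.03% of all tested genes. Acaa1a and Acaa1b are the peroxisomal thiolases, whose coding sequences are 96.5% identical with an identical run of up to 327 bases, so how reads were divided between them is uncertain. Acaa1b (chr9:119057141-119066211, - strand, NCBIM37) was at 276, 367 and 297 RPKM in WT at CT0 and 337, 293 and 479.9 at CT12. The KO samples lay at 167, 136 and 99.99 RPKM at CT0 and 108, 119 and 194 at CT12. The genotypes did not overlap at either time, and the difference was -1.24 ± 0.25 at CT0 (limma adjusted p = 0.029) and -1.41 ± 0.25 at CT12 (limma adjusted p = 0.0034). Acaa1a was at 91.01, 111 and 103 RPKM in WT at CT0 and 121, 116 and 156 at CT12. The KO samples of this gene were at 63.1, 55.9 and 57.6 RPKM at CT0 and 54.3, 61.7 and 80.2 at CT12. It too was lower without overlap at both times, with a difference of -0.78 ± 0.15 at CT0 (limma adjusted p = 0.023) and -0.99 ± 0.15 at CT12 (limma adjusted p = 0.0011).

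With Ppara and Cpt1a, this made 4 members lower in KO at CT0 and none higher, against 0.843% of all tested genes lower and 1.02% higher. The 4 CT0 calls were each lost under some alternative, with adjusted p-values up to 0.11 for Acaa1a, 0.13 for Acaa1b, 0.15 for Cpt1a and 0.097 for Ppara. All 4 were lost when WT CT0 replicate 2, WT CT0 replicate 3 or KO CT0 replicate 3 was left out, and their differences kept their direction. At CT0 37 of the 41 members had a difference below 0, with a median of -0.352 against 0.011 over all tested genes, and at CT12 35 of 41 did, with a median of -0.428 against 0.08.

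Decr2, the peroxisomal counterpart of Decr1, was at 69.3, 82.1 and 81.4 RPKM in WT at CT0 and 106, 98.2 and 116 at CT12, and at 57.9, 53.3 and 47.99 in KO at CT0 and 62.5, 68.7 and 97.6 at CT12. KO was lower without overlap at both times, though neither time passed alone (limma adjusted p = 0.099 at CT0 and 0.052 at CT12). The difference over both was -0.52 ± 0.10 (limma adjusted p = 0.0072). Pex11a, which helps peroxisomes divide, was at 7.13, 8.63 and 6.71 RPKM in WT at CT0 and 11.5, 11.4 and 18.7 at CT12, and at 5.75, 5.55 and 5.57 in KO at CT0 and 8.29, 7.65 and 11.5 at CT12. It was apart at CT0 and overlapped at CT12, with a difference over both times of -0.44 ± 0.13 (limma adjusted p = 0.044) that was lost in 10 of 20 alternatives, up to an adjusted p of 0.11, among them the removal of any library other than WT CT12 replicates 1 and 2 and KO CT12 replicate 3. Ehhadh, the bifunctional enzyme, and Ech1, an isomerase of dienes, did not pass, at -0.28 ± 0.18 and -0.38 ± 0.13 (limma adjusted p = 0.37 and 0.079).

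Bdh1, which turns acetoacetate into beta-hydroxybutyrate, was the 1 member that makes ketone bodies. It was at 99.8, 108 and 108 RPKM in WT at CT0 and 117, 121 and 150.4 at CT12, and at 69.6, 93.3 and 67.5 in KO at CT0 and 78.9, 103 and 139 at CT12. KO was lower without overlap at CT0 and overlapped WT at CT12, and the difference over both times, -0.38 ± 0.13, did not pass (limma adjusted p = 0.084).

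The acyl-CoA thioesterases, which release free fatty acids from coenzyme A, held the largest difference of any member at a single time, that of Acot3 at CT12. Over both times the difference of Cyp4a10 was larger (-2.03 against -1.80 for Acot3). Acot1, Acot3 and Acot4 lie close together on chromosome 12, and the coding sequences of Acot1 and Acot3 are 83.9% identical, those of Acot1 and Acot4 77.3% and those of Acot3 and Acot4 75.9%, so a part of their reads may be shared. Acot3, a peroxisomal form, was at 0.657, 1.93 and 2.11 RPKM in WT at CT0 and 7.72, 3.45 and 12.8 at CT12. Its KO samples had 0.651, 0.265 and 0 RPKM at CT0 and 0.112, 0.326 and 0.474 at CT12. These KO values rest on 18, 7 and 0 reads at CT0 and 3, 8 and 12 at CT12, near the level of 0.085 to 0.14 RPKM that 3 reads give. The group mean of Acot3 reached the 1 RPKM needed for testing in WT only. No KO sample reached the lowest WT sample of its time, with 3.8% of the WT mean left at CT12. At CT0 the gap was thin, 0.657 RPKM (23 reads) in WT against 0.651 (18 reads) in KO. The CT0 difference of -0.95 did not pass (limma adjusted p = 0.24). The difference at CT12 was -2.65 ± 0.36 (limma adjusted p = 0.00058), and with a pseudocount of 0.1 it was -4.25, so its size depends on that setting.

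Acot4, also peroxisomal, was at 2.89, 5.38 and 5.68 RPKM in WT at CT0 and 7.23, 5.80 and 12.3 at CT12, and at 3.78, 2.21 and 2.03 in KO at CT0 and 2.24, 1.62 and 3.27 at CT12. It overlapped between genotypes at CT0 and was apart at CT12 (-1.45 ± 0.29, limma adjusted p = 0.0069). Acot1, the cytosolic form, was at 4.01, 9.92 and 6.83 RPKM in WT at CT0 and 8.71, 3.67 and 12.1 at CT12, and at 2.32, 2.75 and 1.96 in KO at CT0 and 0.934, 1.07 and 3.33 at CT12. KO was lower at both times without overlap, with a difference of -1.44 ± 0.28 over both (limma adjusted p = 0.0058). CT0 alone did not pass and CT12 did (limma adjusted p = 0.18 and 0.017). Acot12, an acetyl-CoA hydrolase on chromosome 13, differed by -0.09, with an interval of -0.36 to 0.17.

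The Cyp4a omega-hydroxylases, long used as markers of PPAR-alpha activity in rodents, were lower on average and spread widely between samples. Cyp4a10, Cyp4a31 and Cyp4a32 lie near each other on chromosome 4 and their coding sequences are 96.0% to 97.2% identical, so the division of reads among them is uncertain, while Cyp4a14 is 76.4% to 77.6% identical to them. Cyp4a10 was at 61.6, 116 and 108 RPKM in WT at CT0 and 209.7, 80.3 and 359 at CT12. KO samples had 14.6, 28.9 and 26.5 RPKM at CT0 and 22.5, 32.4 and 105 at CT12. The genotypes were apart at CT0 and overlapped at CT12 through 1 low WT and 1 high KO sample, and KO means were 24.5% and 24.7% of WT. The difference over both times was -2.03 ± 0.41 (limma adjusted p = 0.0075).

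Cyp4a31 was at 9.04, 25.5 and 16.7 RPKM in WT at CT0 and 31.3, 18.7 and 72.3 at CT12, and at 3.40, 8.17 and 7.04 in KO at CT0 and 7.55, 8.22 and 24.7 at CT12. Cyp4a32 was at 15.4, 42.1 and 30.8 RPKM in WT at CT0 and 43.2, 25.6 and 77.3 at CT12, and at 4.91, 15.1 and 12.4 in KO at CT0 and 13.2, 14.96 and 34.8 at CT12. Both were apart at CT0 and overlapped at CT12. Over both times the differences were -1.40 ± 0.38 for Cyp4a31 and -1.27 ± 0.36 for Cyp4a32 (limma adjusted p = 0.033 and 0.038), and each was lost in 9 of 20 alternatives, up to adjusted p-values of 0.083 and 0.095, among them the removal of any library other than WT CT0 replicate 1, WT CT12 replicate 2, KO CT0 replicate 2 or KO CT12 replicate 3. Cyp4a14 was at 60.6, 231 and 190.4 RPKM in WT at CT0 and 258, 88.1 and 576 at CT12, and at 77.7, 124 and 62 in KO at CT0 and 38.5, 61.2 and 381 at CT12. Its genotypes overlapped at both times, and a difference of -0.99 with an interval of -2.28 to 0.29 was not detectable against that spread.

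The next comparison was between CT0 and CT12. In WT 5 members were higher at CT12 (Ppara, Angptl4, Cpt1a, Pex11a and Acot3) and 2 were lower (Plin2 and Pdk4), against 3.71% of all tested genes higher and 7.88% lower. Under other scalings that background split was 584 higher and 587 lower genes after quantile normalization and 595 and 679 after median-ratio scaling, from 401 and 851. The median member difference was 0.249 against -0.068 over all tested genes, and 35 of 41 members were above 0. In KO 1 member, Cpt1a, was higher at CT12 and none was lower, against 1.1% of all tested genes higher and 1.32% lower, with a member median of 0.142 against -0.002 and 34 of 41 above 0. The 2 comparisons draw on different samples. Markers of other cells also differed between the times. In WT the 6 Kupffer cell, 6 endothelial and 6 stellate markers all had a difference below 0, with medians of -0.581, -0.55 and -0.456. In each of these lists 1 of 6 passed as lower, against 7.88% of all tested genes. In KO those medians were -0.335, -0.513 and -0.281, none of these markers passed, and 1 Kupffer cell and 1 stellate marker were above 0. Of 7 hepatocyte markers in WT, 5 were below 0 and 2 above. The part of these shifts in the differences between times was not tested.

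Cpt1a was higher at CT12 in both genotypes, by 0.85 ± 0.15 in WT and 1.03 ± 0.15 in KO (limma adjusted p = 0.0037 and 0.0066). Angptl4 had nearly equal differences, 1.57 ± 0.41 in WT and 1.61 ± 0.41 in KO, of which the first passed (limma adjusted p = 0.029) and the other did not (limma adjusted p = 0.062), and the samples of the 2 times did not overlap in either genotype. Without WT CT0 replicate 1, WT CT12 replicate 1 or WT CT12 replicate 3 the WT adjusted p was 0.096, 0.093 and 0.1. Pex11a was higher at CT12 in WT by 0.78 ± 0.18 (limma adjusted p = 0.018), which missed the threshold without WT CT0 replicate 1 or 3 or WT CT12 replicate 3 (adjusted p = 0.055, 0.068 and 0.054). The difference of Plin2 was -1.13 ± 0.19 in WT and, in KO, -0.54 ± 0.19 (limma adjusted p = 0.0026 and 0.14). That of Pdk4 was -1.69 ± 0.24 in WT and, in KO, -1.01 ± 0.24 (limma adjusted p = 0.00097 and 0.052), and the WT mean at CT12 was 16.7% of that at CT0 and the KO mean 43.1%. Acot3 rose by 1.72 ± 0.36 in WT (limma adjusted p = 0.011), a call lost with a pseudocount of 0.1 (difference 2.24, adjusted p = 0.066), and its difference in KO was 0.02 ± 0.36, where its reads were few.

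**Figure D3:**
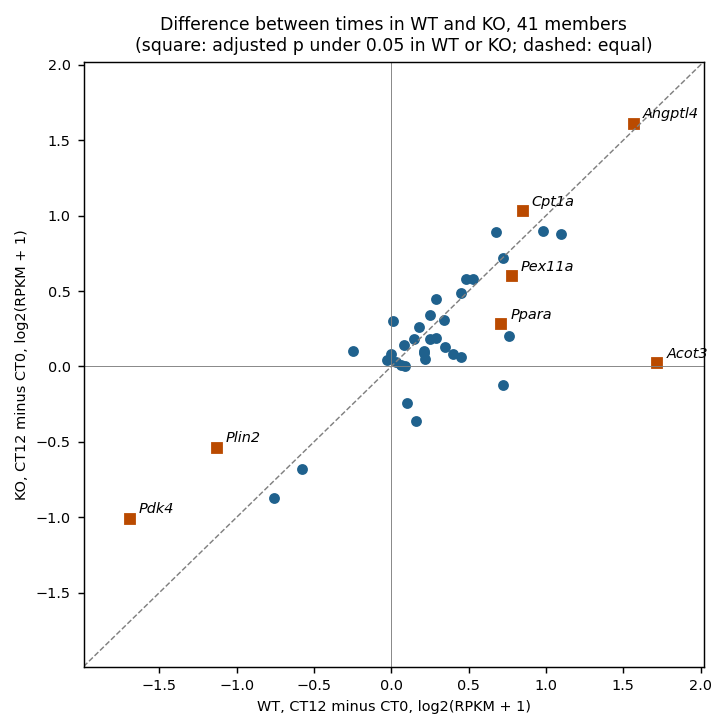
Difference between CT12 and CT0 of each of 41 members in WT (horizontal axis) and KO (vertical axis), both in log2(RPKM + 1). Squares with names passed the limma threshold in WT or KO, and the dashed line marks equal differences. Cpt1a and Angptl4 lie near the line, and Acot3 lies at 1.72 in WT and 0.02 in KO.

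The interaction asks whether the time difference differs between genotypes, and limma called 0 of the 41 members, against 1.07% of all tested genes with a higher and 0.417% with a lower time difference in KO. These 116 and 45 genes became 86 and 58 after quantile normalization and 83 and 66 after median-ratio scaling. At an unadjusted limma p under 0.05 there were 3 of 41 members, Ppara, Plin2 and Acot3. No share of all tested genes was taken at that looser threshold, so this count is not a result about the members. Acot3 had the largest interaction, -1.70 ± 0.51 (limma adjusted p = 0.17), and Plin2 had 0.59 ± 0.26 (limma adjusted p = 0.4). Missing the threshold does not show that the daily change was equal. The 95% interval ran from -2.82 to -0.58 for Acot3 and from -0.06 to 1.42 for Pdk4.

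The members also stood high or low together in single libraries. Within its group, KO CT12 replicate 3 was the highest of the 3 samples in 35 of 41 members, and it was the highest in 42.1% of all tested genes. KO CT12 replicate 1 was the lowest in 32 of 41 and in 43.9% of all genes. WT CT12 replicate 3 was the highest in 33 members (22.3% of all genes), WT CT12 replicate 2 the lowest in 33 (33.2%) and WT CT0 replicate 1 the lowest in 32 (40.5%). The median member deviation from the group mean was 0.294 and -0.219 in the 2 KO libraries, 0.223 and -0.229 in the 2 WT CT12 libraries and -0.157 in the WT CT0 library, in log2(RPKM + 1). The summed level of 6 Kupffer cell markers was 81.2, 115 and 147 RPKM in KO CT12 replicates 1 to 3 and 117, 81.0 and 77.5 in those of WT CT12, and that of 6 endothelial markers was 48.6, 81.3 and 111 in KO CT12 and 68.0, 58.0 and 64.9 in WT CT12, and their part in the shifts was not tested.

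**Figure D4:**
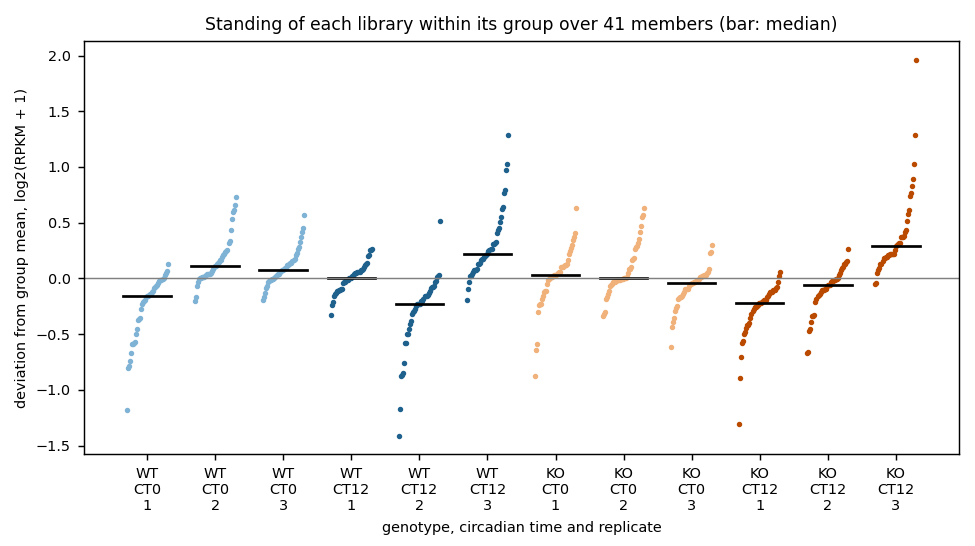
Deviation of each library from its group mean, in log2(RPKM + 1), for the 41 tested members (points, sorted) with their median (bar). The medians reach 0.294 in KO CT12 replicate 3 and -0.229 in WT CT12 replicate 2.

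The rest of the pathway, a list of 87 other genes of fatty acid oxidation, ketone body handling and PPAR partners, had 84 that were tested. Over both times 10 of the 84 (11.9%) were lower in KO and 4 (4.76%) higher, against 4.03% and 7.44% of all tested genes, with a median difference of -0.016 against 0.043. At CT0 2 (2.38%) were lower and 0 higher, against 0.843% and 1.02% of all tested genes. At CT12 8 (9.52%) were lower and 5 (5.95%) higher, against 3.49% and 6.97%. From CT0 to CT12, 8 (9.52%) rose and 6 (7.14%) fell in WT, against 3.71% and 7.88%, and 2 (2.38%) rose in KO, against 1.1%. Aldh3a2, which oxidises the fatty aldehydes of omega-oxidation, was at 54.9, 81.7 and 75.6 RPKM in WT at CT0 and 108, 88.2 and 146 at CT12, and at 31.02, 23.4 and 20.3 in KO at CT0 and 19.1, 27.8 and 37.6 at CT12. It was lower in KO without overlap at both times, with differences of -1.47 ± 0.25 at CT0 and -2.00 ± 0.25 at CT12 (limma adjusted p = 0.013 and 0.00032). Cyp4a12a, another omega-hydroxylase of the liver, was lower in KO at CT0 (-2.14 ± 0.44, limma adjusted p = 0.033). Its genotypes overlapped at CT12, with 43.1, 27.8 and 13.3 RPKM in WT and 9.59, 26.35 and 14.2 in KO. At CT12 KO was higher for Crot, the peroxisomal carnitine octanoyltransferase (1.38 ± 0.30, limma adjusted p = 0.012), for Slc16a1, a carrier of lactate and ketone bodies (1.22 ± 0.13, limma adjusted p = 9.6e-05), and for Ppard, the gene of the related receptor PPAR-delta (1.37 ± 0.23, limma adjusted p = 0.0027). In the interaction 2 of the 84 (2.38%) were called higher and 0 lower, against 1.07% and 0.417% of all tested genes. With so few calls, this count is not a result about the list. The 2 genes were Crot and Slc16a1 (2.20 ± 0.43 and 1.05 ± 0.18, limma adjusted p = 0.026 and 0.016). Both had a fall from CT0 to CT12 in WT (limma adjusted p = 0.019 and 0.00056) that KO did not have.

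Which row stands for a gene mattered little for direction. Of the 42 members 19 had more than 1 transcript row, and in the 18 with more than 1 row of at least 1 RPKM all rows had the same sign of KO minus WT, though such rows can share reads. In 13 of 41 kept rows with a known length the transcript was under 1000 bases long, so a level compared between genes carries that limit, and the kept row of Acaa1a is not in the annotation used here.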

How the data were processed

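Mouse liver RNA was sequenced from TruSeq libraries. The authors deposited 1 table per sample of RPKM values for 46585 transcript rows, with replicates not pooled. The labels name TopHat2, bedtools 2.19.1 and build mm9 (NCBIM37). How reads matching several transcripts or genes were counted is not given in the sources used here. Groups and replicate numbers came from sample titles.

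For each of 22322 symbols the row with the highest mean was kept. The 10799 symbols whose mean reached 1 RPKM in any group were tested. Values were analysed as log2(RPKM + 1), so differences of low genes are understated. A model of 4 group means was fitted to all 12 samples in limma 3.58.1 (R 4.3.3; lmFit, contrasts.fit, eBayes with trend), two-sided, with Benjamini-Hochberg adjustment and a threshold of 0.05, for 6 contrasts. The code was tested on simulated data. The depth of 11540000 to 19070000 reads was recovered from whole-read steps, so 3 reads on Acot3 were worth 0.085 to 0.14 RPKM.

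The members, the other gene lists and the markers were chosen with earlier results of these data known. Values in every sample are given for members with an adjusted p under 0.05 in any contrast and for some that did not pass. Other pathway genes are named if called with a log2 difference of at least 1 in size between genotypes at a time. Alternatives were a pseudocount of 0.1, no filter, 1 RPKM in every sample, quantile normalization, median-ratio scaling, summed rows, the replicate number as a block, a fit to the 6 samples of the comparison alone, and the removal of each library in turn. The longest row per symbol was added after seeing the data. Promoter windows came from RefSeq on GRCm38.p6, and transcript positions and lengths from GENCODE vM1. Other software was Python 3.11.15, pandas 2.3.3, Biopython 1.88 and matplotlib 3.10.9.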

Additional observations from a re-analysis of the deposited data

How the results depend on the processing

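No member difference between groups reversed its sign among those that passed. Without a filter on low values the members called fell from 4 to 1 for KO minus WT at CT0 and from 13 to 7 at CT12, and with only the 6 samples compared the CT12 count was 8. For CT12 minus CT0 in KO the count of 1 became 3 with quantile normalization, 2 with median-ratio scaling, 3 with the longest row of each symbol and 0 with only the 6 samples compared, where Cpt1a had an adjusted p of 0.056. All tested genes split into 119 higher and 143 lower there, 135 and 157 after quantile normalization and 126 and 185 after median-ratio scaling in that contrast. The share of all tested genes was not taken under the other settings, so those counts are not a result about the members. Leaving out each library in turn gave 0 to 5 members at CT0, 6 to 18 at CT12, 15 to 23 over both times, 5 to 9 between times in WT, 1 to 3 in KO and 0 to 1 in the interaction. At CT0 the count was 2 without WT CT0 replicate 1 or KO CT0 replicate 1 and 0 without WT CT0 replicate 2, WT CT0 replicate 3 or KO CT0 replicate 3. At CT12 it was 8 without WT CT0 replicate 2, 6 without WT CT12 replicate 1, WT CT12 replicate 3 or KO CT12 replicate 2, and 7 without KO CT12 replicate 1. The single interaction appeared without WT CT12 replicate 2. Between times in KO it was 3 without WT CT0 replicate 1 and 2 without WT CT0 replicate 2 or KO CT0 replicate 2. Of 20 calls over both times, 15 held under every alternative, and Angptl4, Cyp4a31, Cyp4a32, Decr1 and Pex11a did not. Same-numbered samples did not deviate together (correlations -0.066 to 0.139), so the numbers share only a number, and with the replicate block the counts were 3 at CT0, 13 at CT12, 20 over both times, 7 and 1 between times in WT and KO and 0 in the interaction. Median member differences ranged from -0.419 to -0.258 at CT0, -0.573 to -0.29 at CT12 and -0.487 to -0.303 over both times.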
